A study of Mus musculus with 24 samples.

Results

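Receptors that sense small immune-regulating ligands were examined in liver-resident invariant natural killer T (LiNKT) cells of NOD mice. The set was a named list of 9 receptor genes, Vdr, Rxra, Rara, Nr3c1, Rora, Ahr, Ptger2, Ptger4 and Adora2a, out of the 55401 genes in the count tables, and all 9 were present in the tables. Vitamin D, retinoic acid and glucocorticoid receptors are transcription factors that bind a ligand and then act at response elements in DNA, the first 2 of them as partners of retinoid X receptors. The prostaglandin E2 receptors EP2 and EP4 and the adenosine receptor encoded by Adora2a sit in the cell membrane and signal through cyclic AMP. In T cells these pathways are known for restraining inflammatory cytokines and for favouring regulatory programmes.

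Untreated NOD mice were compared with NOD mice given αGalCer/CD1d-NPs, iron-oxide nanoparticles that carry CD1d molecules loaded with the glycolipid αGalCer, the antigen that invariant NKT cells recognise. Treated mice received 20 µg of protein intravenously 2 times a week for 5 weeks, starting at 8 to 10 weeks of age. Every sample used here consisted of αGalCer/CD1d tetramer-positive LiNKT cells sorted from liver, and the labels name no genetic modification in either group. For SmartSeq2, a full-length single-cell RNA-seq method, cells came from 3 untreated and 3 treated males of 13 to 15 weeks. Whole genome bisulfite sequencing (WGBS) used 7 untreated females of 17 weeks and 4 treated mice of 16 weeks, for which the sources used here give no sex. The multiome nuclei came from 5 untreated and 4 treated males of 13 to 15 weeks. The WGBS cells were sorted as several replicates, which the tables do not separate. Each group was therefore 1 sample per assay here, so no comparison of group values below carries a test or a standard error of its own, the q-values of methylation regions are those of the authors' caller, and the intervals given are exact 95% intervals that cover counting error only. Of the study's LiNKT sub-clusters, 2, 3, 4 and 5 occur among the SmartSeq2 cells, and sub-cluster 5 holds the treatment-induced T regulatory type 1-like (Tr1-like) cells that make interleukin 10.

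In SmartSeq2, 273 untreated and 251 treated cells carried a sub-cluster name and were used, with 172559865 and 149084200 reads and medians of 635257 and 599896 reads and 861 and 850 genes per cell. No cell name was in both tables. Any of 7 iNKT and T cell markers had reads in 272 untreated and 238 treated cells. Cells with reads of a macrophage or Kupffer cell marker numbered 3 and 11, with Clec4f at 0 in both groups, and their summed level was 0.0174 and 1919 CPM (counts scaled to 1000000 reads). Erythroid markers had reads in 2 and 18 cells, hepatocyte markers in 0 and 3, and endothelial markers in 6 and 9. B cell markers had reads in 1 and 0 cells, and neutrophil and stellate cell markers in none. The multiome fragment table held 8565 barcodes ending in 1 and 7237 ending in 2 with at least 1000 fragments, with medians of 7104 and 8591 fragments, and 100 barcode sequences occurred with both endings. No source used here assigns a barcode ending to a group, so the endings are reported side by side as 2 unassigned libraries.

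The following stretches of DNA carry the chromatin results and are printed here. They were picked after the values had been seen, as regions near Vdr and Ptger2 with lower methylation in treated cells and more insertions in barcode ending 2, a region of the opposite direction in Rxra and in Rora, and the Ptger2 promoter, which lies inside a differentially methylated region. Coordinates and bases are those of GRCm38, the C57BL/6J reference rather than NOD, on the plus strand, from RefSeq, and CpG dinucleotides are in capitals. The Vdr downstream region is shown whole, the Ptger2 promoter by the 250 bases before the RefSeq start, and the others by the middle 300 bases of a longer region.
Vdr intron, chr15:97892246-97892545: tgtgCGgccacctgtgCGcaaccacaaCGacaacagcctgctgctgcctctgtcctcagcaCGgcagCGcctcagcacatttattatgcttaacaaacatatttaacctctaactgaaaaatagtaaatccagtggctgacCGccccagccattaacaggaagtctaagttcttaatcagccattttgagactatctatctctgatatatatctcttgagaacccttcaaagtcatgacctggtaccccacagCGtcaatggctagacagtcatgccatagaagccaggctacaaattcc
Vdr downstream, chr15:97815665-97815901: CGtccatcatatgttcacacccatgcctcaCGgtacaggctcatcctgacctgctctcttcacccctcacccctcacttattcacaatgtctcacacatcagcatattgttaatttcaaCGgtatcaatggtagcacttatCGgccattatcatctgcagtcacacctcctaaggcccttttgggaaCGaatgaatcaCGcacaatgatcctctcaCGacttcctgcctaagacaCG
Ptger2 downstream, chr14:45037960-45038259: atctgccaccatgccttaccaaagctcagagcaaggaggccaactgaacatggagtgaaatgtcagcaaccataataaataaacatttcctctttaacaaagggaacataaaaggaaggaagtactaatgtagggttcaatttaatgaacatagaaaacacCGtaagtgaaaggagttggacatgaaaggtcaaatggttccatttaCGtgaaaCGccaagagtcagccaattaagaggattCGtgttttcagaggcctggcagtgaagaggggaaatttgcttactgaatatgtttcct
Rxra intron, chr2:27740378-27740677: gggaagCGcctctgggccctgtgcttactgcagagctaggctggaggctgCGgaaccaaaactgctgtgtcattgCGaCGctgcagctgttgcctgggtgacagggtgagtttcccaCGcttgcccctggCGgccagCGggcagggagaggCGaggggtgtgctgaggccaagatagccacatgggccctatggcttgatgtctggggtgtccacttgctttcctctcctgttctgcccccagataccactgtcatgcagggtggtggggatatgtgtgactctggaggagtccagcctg
Rora intron, chr9:69301707-69302006: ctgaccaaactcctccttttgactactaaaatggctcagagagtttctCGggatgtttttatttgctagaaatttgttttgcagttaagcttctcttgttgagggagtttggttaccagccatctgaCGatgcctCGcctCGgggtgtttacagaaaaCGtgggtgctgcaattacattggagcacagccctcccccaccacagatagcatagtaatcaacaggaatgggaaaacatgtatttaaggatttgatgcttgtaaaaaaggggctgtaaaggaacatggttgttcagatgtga
Ptger2 promoter, chr14:44987861-44988110: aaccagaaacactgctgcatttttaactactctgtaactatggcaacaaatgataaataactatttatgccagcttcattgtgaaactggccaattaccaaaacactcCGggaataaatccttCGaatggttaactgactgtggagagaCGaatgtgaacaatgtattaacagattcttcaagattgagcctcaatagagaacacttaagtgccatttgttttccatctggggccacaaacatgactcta
The Vdr intronic window held 7 CpGs and the Vdr downstream region 8, against 4 in the Ptger2 downstream window, 8 in the Rxra window and 5 in the Rora window. The letters AGGTCA, the core that many nuclear receptors bind, were searched on both strands and stood in the Vdr intronic window from base 236, in the Vdr downstream region from base 47 and in the Ptger2 downstream window from base 188. They stood in 17.7% of the windows of all 2873 differentially methylated regions. GCGTG, the core of the dioxin response element that the aryl hydrocarbon receptor binds, also searched on both strands, stood in the Vdr downstream and the Rxra windows and in 23.2% of all windows. These matches describe letters only.

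Vdr, the nuclear receptor for active vitamin D, was read in treated cells and in no untreated cell. No read was found in 273 untreated cells, a count that allows a share of up to 1.10%, whereas 11 of 251 treated cells (4.38%, interval 2.21 to 7.71) carried between 2 and 3233 reads, with a median of 146. Summed over cells, Vdr stood at 0 CPM (a count of 0 reads allows up to 0.0174) without treatment and at 68.9 CPM (67.5 to 70.2) with it. This limit and interval count reads as if independent, although 31.5% of the treated reads lay in 1 cell. Both are therefore too narrow for the spread between cells. Set against the 3 untreated cells that a count of 0 allows, the treated share was 3.99 times as high, and the exact interval of the ratio of shares began at 2.73. All 11 cells had reads of Cd3e, Cd3g or Trac and none had a macrophage marker, while 2 of them had reads of a marker of another non-T cell type. By sequencing lane, 8 of 173 treated cells in lane 1 and 3 of 78 in lane 2 had Vdr reads, against 0 of 184 and 0 of 89 untreated cells. In lane 2 the intervals of the shares overlapped, so the difference there was within counting error.

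Rxra encodes the retinoid X receptor that pairs with the vitamin D and retinoic acid receptors. It had reads in 6 untreated cells (2.20%, 0.811 to 4.72) and 5 treated cells (1.99%, 0.650 to 4.59). Summed reads gave 11.9 and 25.6 CPM, a log2 ratio of 1.05 after adding 1 CPM to each level, but 53.1% of the treated reads lay in 1 cell. The lanes went opposite ways, with log2 ratios of -3.82 in lane 1 and 3.52 in lane 2. Rara, the retinoic acid receptor alpha, had reads in 11 untreated (4.03%) and 9 treated cells (3.59%), at 26.5 and 12.9 CPM (log2 ratio -0.99). Of its treated reads, 68.7% came from 3 cells with a macrophage marker, and without cells of that kind the log2 ratio was -2.41. Within lanes the log2 ratio of Rara was -1.98 and 0.69, so neither retinoid receptor had a direction shared by the lanes.

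Nr3c1 encodes the glucocorticoid receptor and had reads in more cells than the other 8 genes. It was read in 46 untreated cells (16.8%, 12.6 to 21.8) and 29 treated cells (11.6%, 7.88 to 16.2), at 250 and 128 CPM, a log2 ratio of -0.96. The share went from 15.2% to 10.4% in lane 1 and from 20.2% to 14.1% in lane 2, and the share intervals of the groups overlapped. Among cells with at least 1000 genes and less than 10% of mitochondrial reads, the log2 ratio of Nr3c1 turned to 0.19. Rora, an orphan-type nuclear receptor of innate-like lymphocytes that also acts in the circadian clock, showed the wider gap in cells. It had reads in 37 untreated cells (13.6%, 9.73 to 18.2) and 11 treated cells (4.38%, 2.21 to 7.71), and these intervals did not overlap. Its summed level was 164 and 74.5 CPM (log2 ratio -1.13). The share of cells was lower in treated cells in each lane, at 22 of 184 and 8 of 173 cells in lane 1 and 15 of 89 and 3 of 78 cells in lane 2. Within each lane the share intervals overlapped. The log2 ratio of summed reads was -0.31 in lane 1 and -4.72 in lane 2.

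Ahr, the aryl hydrocarbon receptor that senses dietary and microbial indoles, had no read without treatment and stood at 12.3 CPM with it. Its 1841 reads lay in 5 cells (1.99%, 0.650 to 4.59), 65.4% of them in 1 cell, and 2 of the 5 cells, with 3.80% of the reads, had reads of a macrophage marker. The intervals of the shares overlapped, and the exact interval of their ratio began at 0.997, so the difference in share was within counting error.

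Ptger2 encodes the EP2 receptor for prostaglandin E2. It had reads in 8 untreated cells (2.93%, 1.27 to 5.69) and 12 treated cells (4.78%, 2.49 to 8.20). Reads per positive cell ran from 7 to 1738 with a median of 787 in untreated and from 12 to 1895 with a median of 948 in treated cells. The summed level was 34.7 and 74.6 CPM (log2 ratio 1.08), and the log2 ratio was 1.11 in lane 1 and 1.13 in lane 2. Share intervals overlapped. The gene models Gm17173 and Gm49364 overlap Ptger2 on the other strand, and since the SmartSeq2 protocol does not mark strand, reads of such partners cannot be told apart. The same holds for Gm15511 in Rora, Gm48236 at Ahr and Ttc33 at Ptger4. Ptger4, the EP4 receptor, had reads in 16 cells of each group (5.86% and 6.37%) at 94.8 and 137 CPM (log2 ratio 0.52). Adora2a, the adenosine receptor of the membrane, had reads in 10 and 11 cells (3.66% and 4.38%) at 54.2 and 49.8 CPM (log2 ratio -0.12). The intervals of the shares overlapped for both genes.

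By the 2-fold rule on summed reads, 4 of the 9 genes were higher in treated cells, Vdr, Rxra, Ahr and Ptger2, and Rora was lower. Of all 8286 genes with reads in at least 10 cells, 22.4% were past 2-fold, 11.0% higher and 11.4% lower, and 8 of the 9 receptor genes met that minimum, Ahr being the exception. Among genes read about as sparsely, in 10 to 75 cells, a band set after the data were seen, 26.1% were past 2-fold, and with no minimum 29.4%. The fold rule therefore passes many sparsely read genes, and only 2 receptors, Vdr (higher) and Rora (lower), were past 2-fold in the share of cells with reads. By that share, 15.5% of the 8286 genes and 18.4% of those read in 10 to 75 cells were past 2-fold, so a count of 2 was close to the background by this measure. By summed reads, 3 of the 8 receptors that met the minimum were higher and 1 was lower. Vdr met the minimum through treated cells alone and could only be higher, and Rxra went opposite ways in the lanes. These counts therefore do not set the receptors apart from the background. The receptors were chosen with earlier results of these data known, so this is a description. Per kilobase of exon, levels in untreated cells were highest for Nr3c1 at 32.5 RPKM (the CPM divided by the exon length in kilobases), followed by Adora2a at 17.7, Ptger4 at 14.3 and Rora at 12.5, with Ptger2 at 6.68, Rara at 6.07 and Rxra at 2.18 RPKM below. In treated cells the order was Ptger4 at 20.5, Nr3c1 at 16.6, Adora2a at 16.3, Ptger2 at 14.4 and Vdr at 12.2 RPKM, with Rora at 5.70, Rxra at 4.69, Rara at 2.95 and Ahr at 2.00 RPKM below. Nr3c1 and Adora2a lay close together in treated cells, and neighbours in either order have no replicate spread against which to set the gap.

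**Figure D1:**
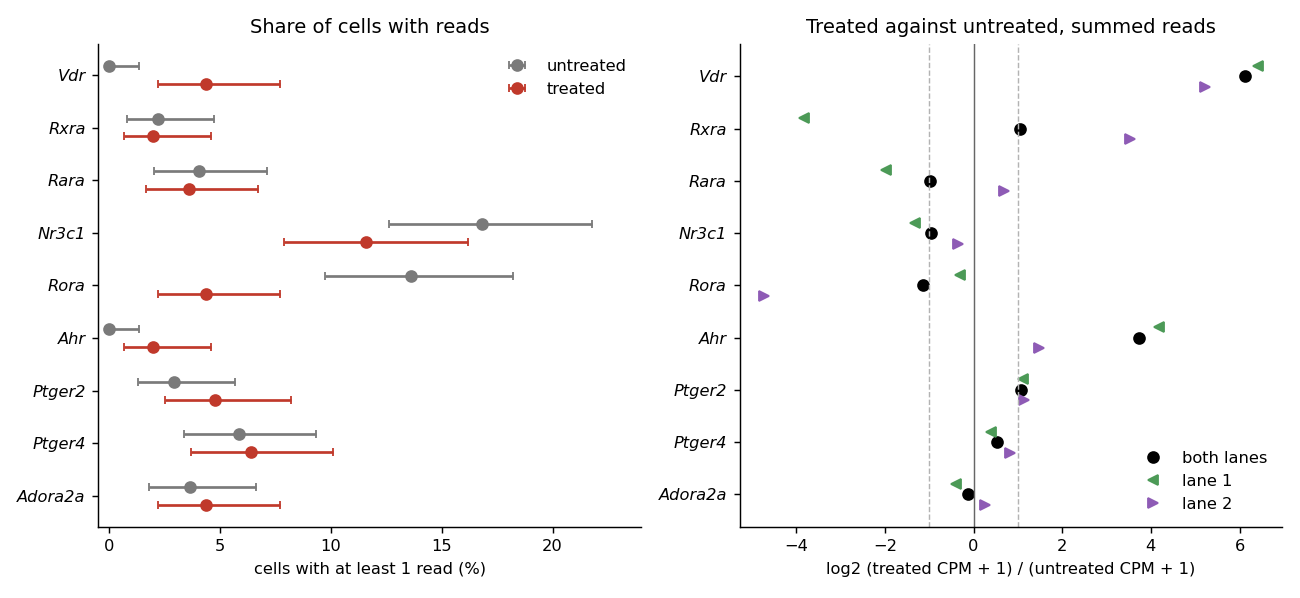
Left, share of cells with at least 1 read of each receptor gene (percent) in untreated (grey, n = 273 cells) and treated (red, n = 251 cells) LiNKT cells, with exact 95% binomial intervals; right, log2 ratio of treated to untreated summed CPM (plus 1) for both sequencing lanes together and for each lane, with dashed lines at a 2-fold difference. Vdr was at 0% and 4.38% and Rora at 13.6% and 4.38%, and the lanes pointed opposite ways for Rxra, Rara and Adora2a.

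Most cells had no read of any receptor on the list, 59.3% of untreated and 65.3% of treated cells. Reads of 2 receptors were found in 19 untreated and 14 treated cells, and of 3 receptors in 2 and 4 cells. Reads of only 1 receptor were found in 90 untreated and 69 treated cells. Whether this differs from what the low shares of the single receptors alone would give was not tested. For Vdr and Rxra, reads of another receptor were common. Most of the 11 treated cells with Vdr reads, and most cells with Rxra reads (6 untreated and 5 treated), had them. These are few cells, and the same share is not given for the other receptors. Nothing particular to these 2 genes is therefore shown. At this depth a missing read does not show a missing transcript.

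The receptors were spread unevenly over the study's sub-clusters, which were assigned from genes of these same cells, so the shares that follow are a description. Of the 11 treated cells with Vdr reads, 10 were in sub-cluster 5, where they made up 17.5% of 57 cells (8.75 to 29.9), and the other was in sub-cluster 2 with 2 reads. The level was 276 CPM in sub-cluster 5 and 0.0179 CPM in the other treated cells, and none of 133 cells of sub-cluster 4 had a read. Ptger2 had reads in 7 cells of sub-cluster 5 (12.3%, 5.08 to 23.7) and in 5 of the other 194 treated cells (2.58%), at 192 and 35.5 CPM. Rora had reads in 4 cells of sub-cluster 5 (7.02%) and 7 others (3.61%), at 156 and 47.5 CPM. The opposite held for Nr3c1, with reads in 2 cells of sub-cluster 5 (3.51%) and 27 others (13.9%), at 28.9 and 161 CPM. Rara and Ahr had no read in sub-cluster 5, which for 57 cells allows a share of up to 5.26%. Their shares in the other treated cells, 4.64% and 2.58%, were under that limit. Adora2a had reads in 3 cells there (5.26%) and 8 others (4.12%), a slightly higher share, while its summed level was lower, at 1.42 and 65.9 CPM. Rxra and Ptger4 had log2 differences of 0.08 and 0.09, which rested on single cells: Rxra had reads in 1 cell of sub-cluster 5 and Ptger4 in 5, and both were more than 2-fold lower there without the cell with most reads of the gene in each set. Counted by 2-fold, 3 of the 9 receptors were higher in sub-cluster 5 and 4 were lower. Of 5211 genes with reads in at least 10 treated cells, 12.2% were higher and 20.1% lower. Of the 6 receptors that met this minimum, which Rxra, Rara and Ahr did not, 3 were higher and 2 lower. Vdr met it only through its cells in sub-cluster 5 and could only be higher. These counts therefore do not set the receptors apart from the background. The contrast of sub-cluster 5 with the other treated cells was set after the data had been seen.

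In untreated cells the Rora reads lay mostly in sub-cluster 2, with 35 of 228 cells (15.4%) against 2 of 43 in sub-cluster 4 (4.65%). In treated cells 2 of 61 cells of sub-cluster 2 (3.28%) had Rora reads, a lower share than in untreated cells of that sub-cluster, with intervals that overlapped. The summed level in sub-cluster 2 was 191 and 0.424 CPM. In sub-cluster 4 the Rora share was close to level, with 5 of 133 treated cells (3.76%), and the summed level was higher in treated cells, at 36.3 and 67.1 CPM. The untreated share of Nr3c1 was 17.5% in sub-cluster 2 and 14.0% in sub-cluster 4, close to the treated 14.8% and 13.5%, and its lowest treated share was that of sub-cluster 5 (0.428 to 12.1).

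**Figure D2:**
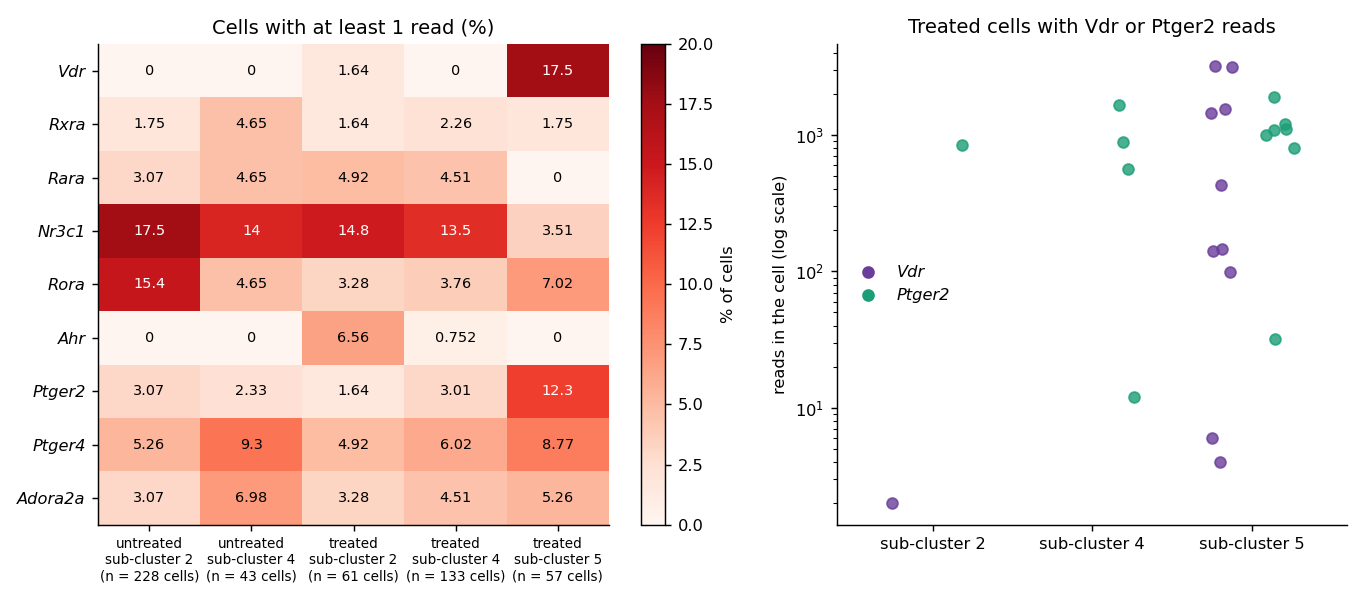
Left, percent of cells with at least 1 read of each receptor by group and sub-cluster (number of cells under each column; darker is higher; 2 untreated cells of sub-cluster 3 not shown); right, reads in each treated cell that had reads of Vdr (purple) or Ptger2 (green), on a log scale, by sub-cluster. Vdr reads lay in 10 cells of sub-cluster 5 and 1 of sub-cluster 2, and Ptger2 reads in 7 cells of sub-cluster 5, 4 of sub-cluster 4 and 1 of sub-cluster 2.

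The Tr1-like genes Il10, Il21 and Lag3, a list taken from earlier results on these cells, had no read in untreated cells and were read in 32, 26 and 56 treated cells. Among treated cells, Lag3, an inhibitory receptor, had reads in 9 of the 11 cells with Vdr (81.8%) and in 47 of the other 240 (19.6%). Within sub-cluster 5 the contrast was small, with Lag3 in 8 of 10 cells with Vdr (80.0%) and 34 of 47 without (72.3%), and Il10 in 4 of 10 (40.0%) and 21 of 47 (44.7%). Il21, a cytokine of helper T cells, was read in 6 of 10 cells with Vdr (60.0%, 26.2 to 87.8) and 15 of 47 without (31.9%, 19.1 to 47.1). Vdr and Ptger2 were read together in 1 cell. Ptger4 was read in 3 of the 11 treated cells with Vdr (27.3%, 6.02 to 61.0) and 13 of the other 240 (5.42%, 2.92 to 9.08). Adora2a was read in 1 (9.09%) and 10 (4.17%) of them, and for both genes the intervals overlapped. Across all 524 cells, among the 4115 genes with reads in at least 5% of them, the 5 with the highest correlation with Vdr were Sccpdh (Spearman rho 0.41), Lag3 (0.34), Pdcd1 (0.30), Gm7392 (0.27) and Tigit (0.26), of which Lag3, Pdcd1 and Tigit encode inhibitory receptors. For Ptger2 the highest were Gm6443 and Gm37004 (0.24 each), Rnh1 and Rab1a (0.22 each) and Hmox2 (0.21). The points share group, sub-cluster and depth, most are at 0, and the values are a description.

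Genes around the receptors were counted by the same 2-fold rule, for list members with reads in at least 10 cells, where 11.0% of all genes were higher and 11.4% lower with a median log2 ratio of 0. Of 11 glucocorticoid receptor chaperones and targets, none was higher and 4 were lower, with a median of -0.61. The 4 were Tsc22d3 (GILZ, 605 and 196 CPM, log2 ratio -1.62), the phosphatase gene Dusp1 (5045 and 2052 CPM, -1.30), Fkbp5 (-1.65) and Klf9 (-1.55). Per1 stood at -0.81 and Zbtb16, which also encodes the iNKT lineage factor PLZF, at 0.64. Of the 4, Dusp1 and Klf9 were past 2-fold in each lane, while Tsc22d3 was at -2.07 and -0.85 and Fkbp5 at -4.44 and -0.08 in lanes 1 and 2. Klf9 was read in only 6 untreated and 4 treated cells, at 7.53 and 1.91 CPM. Dusp1, Fkbp5 and Klf9 also answer to stimuli other than glucocorticoids. Of 14 cyclic AMP signalling genes, Crem was higher (22.7 and 66.4 CPM) and Nr4a3 (-2.13), Crtc2 (-1.59), Sik1 (-1.22) and Pde3b (-1.07) were lower, while Creb1 stood at -0.92. The list's median was -0.57. Sik1 changed sign between lanes, at -3.56 and 0.78, and of the others only Nr4a3 was past 2-fold in each lane (-1.01 and -2.87).

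Among 9 nuclear receptor partners and co-regulators, the co-activator gene Ncoa3 was higher (77.5 and 175 CPM, 1.16), and Ncoa2 (-1.35) and the clock repressors Nr1d1 (-3.13) and Nr1d2 (-4.87), which act on the same DNA elements as Rora, were lower. Nr1d1 was read in 12 untreated cells and 1 treated cell, and Nr1d2 in 9 and 2. In lane 1 Ncoa3 stood at 0.86 and Ncoa2 at -0.12. Ncor1 (0.11) and Med1 (-0.70) did not pass 2-fold. Of the vitamin D and retinoid metabolism genes, 12 of 15 had no read in either group, among them Cyp24a1 and Cyp27b1, the enzymes that break down and make active vitamin D. Dhrs3, a retinaldehyde reductase, was named after its values were seen, at 0 reads without treatment and at 68.8 CPM with it, in 10 cells. For the aryl hydrocarbon receptor, Arnt (-0.28) and Tiparp (0.57) had reads in at least 10 cells and did not pass 2-fold, while Ahrr, Cyp1a1, Cyp1b1 and Nqo1 had none. None of 12 other prostanoid genes reached 10 cells. Of 5 adenosine genes none passed 2-fold, with Ada at -0.59 and Entpd1, which encodes CD39, at 0.21.

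DNA methylation differed near 8 of the 9 receptors. Of 2873 regions that the authors called between the groups, 1983 had lower and 890 higher methylation in treated LiNKT cells, and 14 lay in or within 50 kb of a receptor gene, 10 lower and 4 higher. In such bulk DNA, a change in every cell and a change in the share of cells of a kind cannot be told apart, nor can treatment be told apart from the age and sex of the mice. Vdr, Nr3c1, Rora, Ptger2 and Ptger4 had a lower region, 5 of 9 genes, where 11.3% of 21911 protein-coding genes did, and 14.7% of those between the shortest and the longest receptor gene in length. Rxra, Rara, Adora2a and Rora had a higher region, 4 of 9, against 6.92% of all protein-coding genes. Ahr had neither. The share of all genes with a region of either direction was not counted, so the 8 of 9 has no background. The receptors were chosen with earlier results of these data known. The paper already reports lower methylation in Vdr and at an active enhancer near Ptger2. It also reports upregulation of both genes, and at Vdr gains of the histone marks H3K4me3 and H3K27ac without a differential open chromatin region. These shares are therefore a description and no test of enrichment.

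In Vdr, the intronic region (chr15:97892157-97892635, 479 bp, 17995 bp from the annotated start) went from 49.9% methylation in untreated to 21.3% in treated cells by the authors' group means (q = 6.5e-05). All 22 cytosines with a value were lower in treated cells, at 18 to 79% and 2 to 49%. The second region lay 38524 bp past the end of Vdr, inside the histone deacetylase gene Hdac7 (chr15:97815665-97815901), and went from 87.4% to 42.5% (q = 7.3e-09), with 16 of 16 cytosines lower and no overlap between 75 to 97% and 14 to 68%. Ptger2 had 4 regions, all lower. The first (chr14:44986672-44988204) covered the promoter and went from 84.2% to 57.3%, and the second in the intron (chr14:44990827-44991397) from 86.7% to 32.7%. For the intronic one the cytosines of the site table gave 83.2% and 53.1%, a smaller difference than the region table. The third (chr14:45037926-45038294), 34106 bp past the end of Ptger2, went from 56.2% to 13.3% with 10 of 10 cytosines lower, and the fourth (chr14:45039623-45039993) from 86.5% to 58.1%.

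Ptger4 had an intronic region that was poorly methylated in untreated cells already, at 15.5%, and stood at 4.32% in treated cells, with 30 of 32 cytosines lower. Nr3c1 had a region 19276 bp past its end at 92.7% and 70.5%. Rora, the longest of the genes at 734 kb, had lower regions 273713 and 372261 bp into the gene (92.5% and 70.4%, 87.0% and 44.1%) and a higher one at 647848 bp (chr9:69301634-69302081, 19.8% and 53.6%, 24 of 24 cytosines higher).

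The higher regions of the other genes had the same form. Rxra went from 20.8% to 56.7% in an intron (chr2:27740344-27740713, 21 of 21 cytosines higher), Rara reached 72.5%, by 54.5 points, in an intron (chr11:98949881-98950205, 14 of 14), and Adora2a from 14.7% to 47.4% at 22278 bp upstream, inside Specc1l (chr10:75294195-75294599, 12 of 12). The Rara gain was among the larger ones, since only 2.92% of the 890 regions with a gain changed at least as much, whereas 29.2% of the 1983 regions with a loss changed at least as much as the Vdr downstream region and 73.8% as much as the Vdr intronic one. Read depth per cytosine is not in the tables, so the error of a methylation value is unknown.

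**Figure D3:**
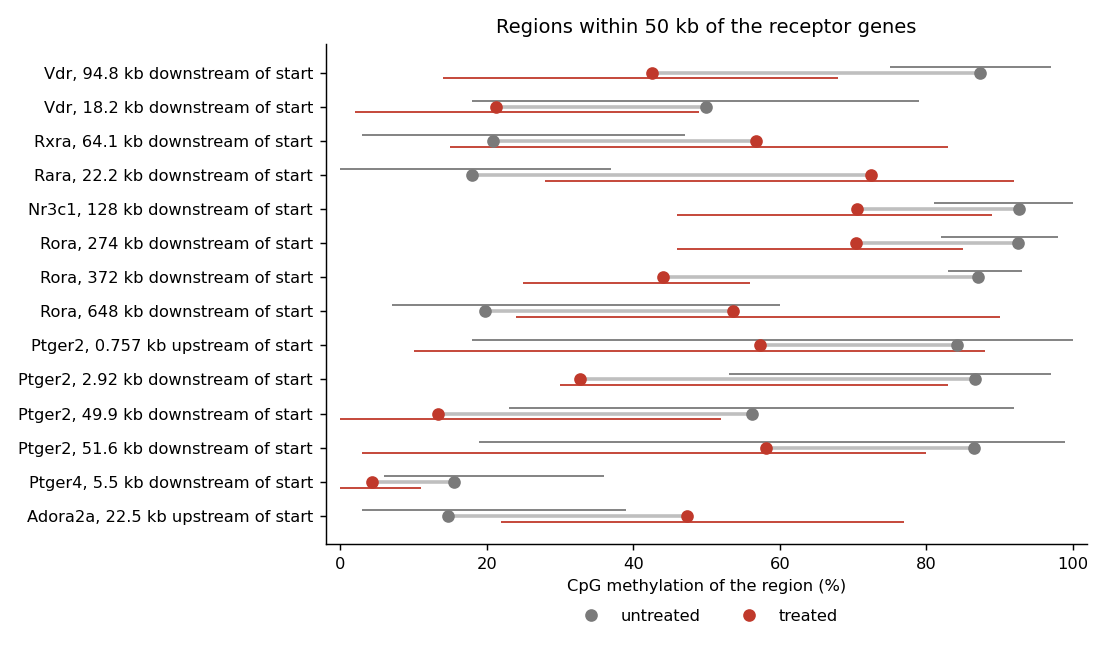
CpG methylation (percent) of the 14 regions within 50 kb of the receptor genes in untreated (grey) and treated (red) LiNKT cells; dots are the authors' group means, thin lines run from the lowest to the highest cytosine, and labels give the distance of the region's middle from the annotated gene start. The Vdr, Nr3c1, Ptger2 and Ptger4 regions and 2 of the 3 Rora regions lay lower in treated cells, and those of Rxra, Rara, Adora2a and the last of Rora lay higher.

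Chromatin was compared between the 2 barcode endings as fragment ends (transposase insertions), scaled to CPM by the total insertions of each ending. Within 2 kb of the annotated start, Vdr had 433 insertions in ending 1 and 633 in ending 2, or 2.66 and 4.23 CPM, a ratio of 1.59 (1.40 to 1.80), and was the only receptor past 1.5-fold, where 14.7% of 16328 promoters were. At their annotated starts, the promoters of the other receptors were between 0.749 (Rara) and 1.20 (Ptger2, Adora2a and Rora) times as high in ending 2. At these starts Ptger4 stood at 75.5 and 79.9 CPM, Nr3c1 at 65.0 and 61.1, Adora2a at 42.0 and 50.2, Ptger2 at 32.6 and 39.1 and Ahr at 24.6 and 22.4. Taking for each gene the transcript start with most insertions, an alternative added after the data had been seen, Nr3c1 stood at 96.4 and 98.0 CPM (ratio 1.02, 28747 bp from the annotated start), Rara at 56.1 and 63.7 CPM (ratio 1.14, 32594 bp) and Vdr at 18.6 and 31.9 CPM (ratio 1.72, 2320 bp). The direction of Rara thus turned with the start chosen, and the Nr3c1 ratio lay within counting error of 1 (0.994 to 1.04). The annotated Rora start was closed in both, with 29 and 32 insertions, but a transcript start 635896 bp further on had 9295 and 6913, a ratio of 0.809 (0.784 to 0.834) where the annotated start had 1.20 (0.703 to 2.06). The Ahr promoter was thus open in both endings although no untreated cell had an Ahr read in SmartSeq2.

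Over whole gene bodies Vdr had 4165 and 11269 insertions (25.6 and 75.3 CPM), 2.94 times as many in ending 2 (2.84 to 3.05). Rora had 100417 and 60954 (617 and 407 CPM), a ratio of 0.660, and the other 7 genes were between 0.853 and 1.20. Gene bodies past 1.5-fold made up 11.4% of 18358.

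The differentially methylated regions differed more than the promoters. The Vdr intronic region had 38 insertions in ending 1 and 782 in ending 2 (0.233 and 5.22 CPM), a ratio of 22.4 (16.2 to 31.9), and the Ptger2 region past the gene end had 132 and 903, a ratio of 7.44 with a lower bound of 6.19. The Vdr downstream region had 68 and 129 (2.06), the Ptger2 promoter region 281 and 405 (1.57) and the Ptger4 intronic region 860 and 945 (1.19). The Ptger2 intronic region had 52 and 88 (1.84) and the fourth Ptger2 region 48 and 68 (1.54, 1.05 to 2.28). The regions with a gain of methylation were higher in ending 1, with 564 and 240 insertions for Rxra (ratio 0.463), 203 and 88 for Rara (0.471), 554 and 293 for Adora2a (0.575) and 283 and 160 for Rora (0.615). Of the receptors' regions with at least 100 insertions, 6 of 7 with a loss were 1.5-fold or more higher in ending 2 and none in ending 1, where 85.0% and 0.434% of 1384 such regions were. All 4 with a gain were 1.5-fold or more higher in ending 1 and none in ending 2, where 63.8% and 1.69% of 771 such regions were. The whole set of regions showed the same split by ending, and counts of 7 and 4 regions cannot tell the receptors apart from it. Over the whole set the median ratio of ending 2 to ending 1 was 4.25 for a loss and 0.575 for a gain. Of the 7 receptor regions with a loss, only the Vdr intronic region (22.4) and the Ptger2 region at 7.44 lay above 4.25.

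**Figure D4:**
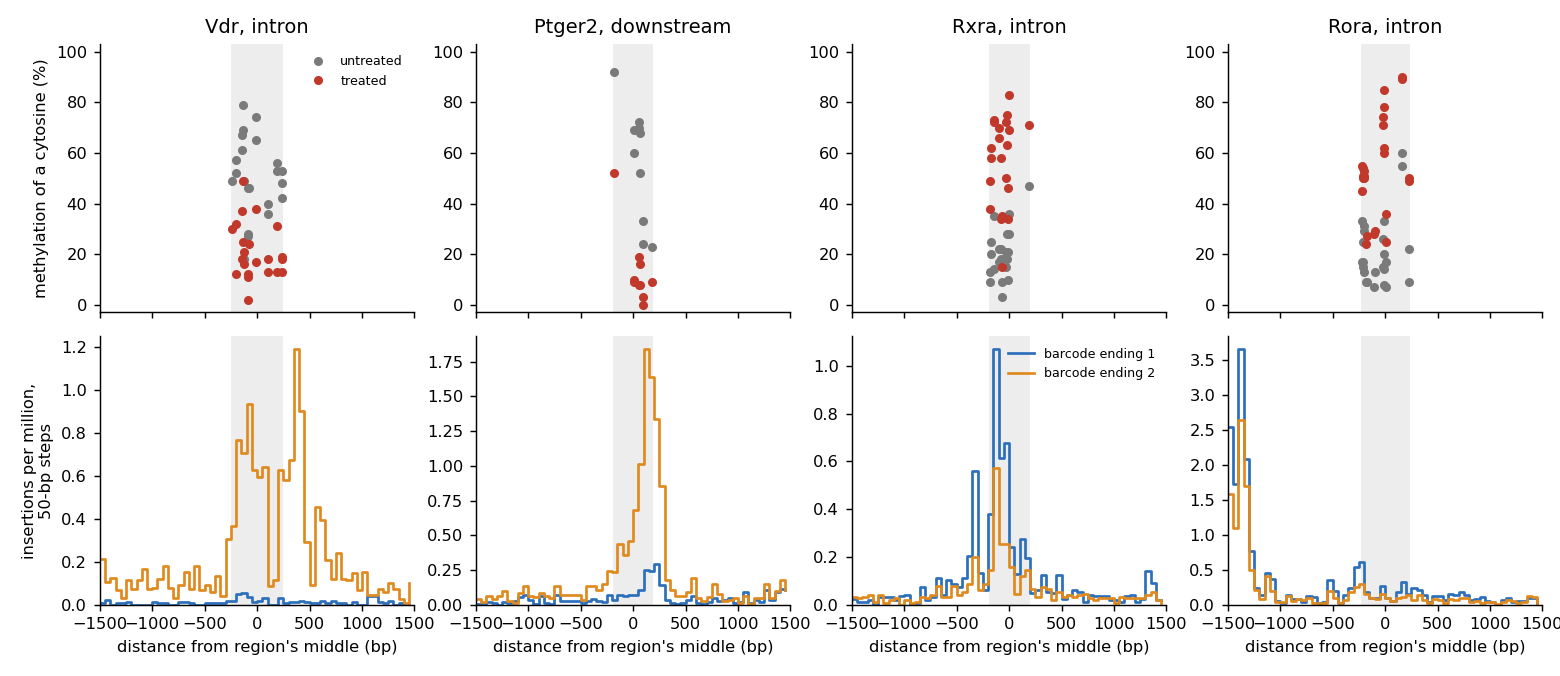
For 4 regions, methylation of each CpG cytosine (top, percent) in untreated (grey) and treated (red) cells, and insertions in CPM in steps of 50 bp (bottom) for barcode ending 1 (blue) and ending 2 (orange), against distance from the region's middle; shading marks the region. In Vdr and Ptger2 cytosines lay lower in treated cells and insertions higher in ending 2 (782 against 38 and 903 against 132 within the regions), and in Rxra and Rora the reverse (240 against 564 and 160 against 283).

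**Figure D5:**
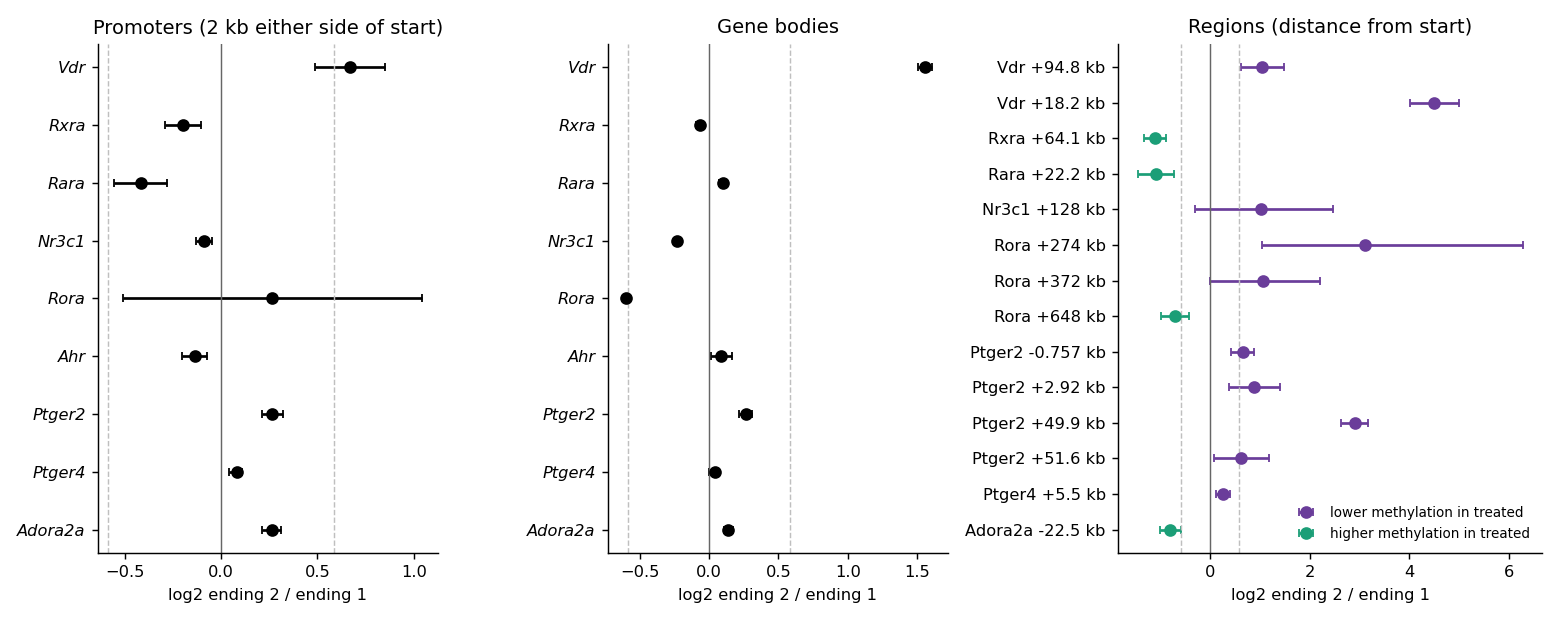
Log2 ratio of insertions (in CPM) in barcode ending 2 to ending 1 at promoters (left), gene bodies (middle) and differentially methylated regions (right, with distance from the annotated gene start; purple, lower and green, higher methylation in treated cells), with exact 95% intervals and dashed lines at 1.5-fold. The ratio was 1.59 at the Vdr promoter, 2.94 over its gene body and 22.4 at its intronic region.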

How the data were processed

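Per the labels and the study's methods, the deposited SmartSeq2 tables hold raw read counts per gene and cell, without molecular identifiers, which the authors made by aligning reads to GRCm38 with STAR. The strand setting is not given in the sources used here. The deposited methylation fractions are 1 value per cytosine and group, and the region table gives group means and the q-value of the authors' caller; reads were mapped to mm10 with BSMAP and regions called with metilene, and how mice were combined and the read depth per cytosine are not given in the sources used here. The deposited fragment table (Cell Ranger ARC) counts read pairs per fragment and pools both multiome groups. Samples of the series without a table here were not analysed.

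Members and gene lists were chosen with earlier results of these data known. Counts were summed over the cells to which the study gives a sub-cluster (273 and 251 cells), scaled to CPM and compared as log2 ratios with a pseudocount of 1 CPM, called at 2-fold. A region belonged to a gene within 50 kb of its body. Insertions were both ends of each fragment in barcodes with at least 1000 fragments, compared at 1.5-fold for windows with at least 100 insertions over both endings. The limit of a count of 0 is 3 counts. Poisson and binomial intervals (95%) are exact and cover counting error only, since PCR reads are not independent molecules. Doublets were not called. List genes were named by rule, up to 4 per list with the largest absolute log2 ratio among those with reads in at least 5% of a group's cells, and genes behind counts of 5 or fewer were named after their values were seen; for Vdr and Ptger2, 5 genes by Spearman correlation. Gene symbols came from GENCODE M21, in which 260 of 55401 gene IDs were not found. Python 3.11.15, NumPy 2.4.6, pandas 2.3.3 and SciPy 1.17.1 were used, and the functions were tested on simulated data. With 1 sample per group no count model was fitted. The result of 1 list gene is not reported here.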

Additional observations from a re-analysis of the deposited data

Results flagged for a closer look

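Vdr reads also lay outside the cells used above. Of the 31 treated cells that have no sub-cluster name, 3 (9.68%, 2.04 to 25.8) carried Vdr, with 3231 reads together (191 CPM), and all 3 had Il10 reads as well. These 31 cells had a median of 1528 genes, against 850 in the treated cells used, and whether they hold more than 1 cell was not tested. None of the 11 untreated cells without a sub-cluster had a Vdr read.

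Beyond the 50 kb limit, 2 more regions lay past the end of Ptger2, both with lower methylation in treated cells. The nearer one, 96285 bp from the gene, changed by -23.3 points, from 92.0% to 68.8%. The farther one (chr14:45101922-45102583), 98102 bp from the gene, changed by -65.4 points, from 79.9% to 14.5% (q = 1.7e-12), with 21 of 21 cytosines lower, and only 1.36% of the 1983 regions with a loss changed at least as much. It had 40 insertions in barcode ending 1 and 1451 in ending 2, a ratio of 39.4 (28.8 to 55.4). Both overlap the gene model Gm49180, and which gene they act on was not tested.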

How the results depend on the processing

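The number of receptors past 2-fold in SmartSeq2 was 5 as reported. It was 3 with the mean of the CPM of each cell, 2 by the share of cells with at least 1 read, 2 with at least 5 reads and 3 after thinning each cell to 100000 reads, which added Ptger2, and it lay within 1.5 times of 5 under the other alternatives, of which 4 that left out cells by marker or depth were chosen after seeing the data. Rora kept its direction in all 14 alternatives, with log2 ratios from -4.72 to -0.31. Ptger2 ran from 0.99 to 1.30 and was past 2-fold in 12 of the 14. Vdr (3.88 to 9.43) and Ahr (1.48 to 6.96) had no untreated read, so no alternative could turn them, and the size of their ratios follows the pseudocount and is no bound. Rxra turned to -3.82 within lane 1; the cause was not tested. Rara, Nr3c1, Ptger4 and Adora2a, not past 2-fold as reported, changed sign in at least 1 alternative, and Rara was past 2-fold in the reported direction in 8 of 14 and Nr3c1 in 2. A stricter cell filter (1000 genes, 10% mitochondrial counts) put Nr3c1 at 0.19.

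Receptors with a region of lower methylation numbered 3 rather than 5 within 50 kb of the start (Nr3c1 and Rora lost) and 3 among regions with at least 20 CpG cytosines, which leaves fewer regions. The Ptger2 intronic change was -54.0 points in the region table and -30.1 over cytosines. Promoters past 1.5-fold between endings numbered 2 rather than 1 by the share of barcodes with an insertion (Vdr and Rora). The contrast of sub-cluster 5 with other treated cells gave 3 receptors higher and 4 lower, 2 and 5 within lane 2, and 3 and 6 without the cell with most reads of each gene in each set. No paired analysis was possible because each group compared here is 1 sample with no replicate number to pair.

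Limits: mice were not separated, so no value has a biological error; all receptors but Nr3c1 and Ptger4 rest on 12 or fewer cells in at least 1 group, and at this depth a missing read does not show that a gene is off.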
